A study of Mus musculus with 8 samples.

Results

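The mature microRNAs described here are mmu-miR-6370, mmu-miR-6957-5p, mmu-miR-883a-5p, mmu-miR-882, mmu-miR-1966-5p, mmu-miR-7084-5p, mmu-miR-5113 and mmu-miR-423-5p, 8 of the 1881 mouse miRNAs on the array, written below without the mouse prefix. They were chosen by name for being detected on every array of pure mutant medium and of mixed medium and for a higher signal in the pure mutant medium. The difference between those media is therefore how they were picked, and it is given below as a description. Calls of the fit for that difference are printed as background and support nothing about the 8. All 8 met the rule, and all 8 were also detected on both arrays of pure wild-type medium, which the rule did not use.

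The study measured miRNAs released into culture medium by primary mouse myocytes, with 1 Agilent 1-colour array per medium and 3 kinds of medium. The names give the cells of the bottom chamber first and those of the insert second, across a membrane with pores of 0.4 µm. G93A/G93A medium (n = 3) came from hSOD1(G93A) myocytes in both chambers, G93A/WT medium (n = 3) from hSOD1(G93A) myocytes below and hSOD1(WT) myocytes in the insert, and WT/WT medium (n = 2) from hSOD1(WT) myocytes in both. The hSOD1(G93A) mice were B6SJL(Tg-SOD1*G93A)1Gur/J, a model of amyotrophic lateral sclerosis that overexpresses the G93A mutant of human SOD1. The hSOD1(WT) mice were B6SJL(Tg-SOD1)2Gur/J, which overexpress the wild-type human protein, so WT/WT is not a culture without a transgene. Both lines were bred from hemizygous males, and the myoblasts came from posterior limb muscle of pups aged 1 to 3 days, labelled male. More cells were seeded below (2.5) than in the insert (1.5, both in 1e5 cells), and medium was taken at 2 days in vitro. Each sample is labelled as its own biological replicate, but the labels name no litter or culture day and do not say whether the medium held 10% foetal bovine or 2% horse serum. Medium without cells was not analysed here, and a probe cannot separate a mouse miRNA from a serum miRNA of the same sequence.

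A miRNA is cut from a hairpin precursor whose arms give a 5p and a 3p product, and bases 2 to 8 of the mature strand, the seed, pair with target messenger RNAs and reduce their output. Muscle cells release miRNAs into the surrounding fluid in vesicles and bound to proteins. Among the 8, miR-423-5p has been widely measured in blood plasma. Mir883a belongs to an X-linked group of miRNA genes known from testis. Mir882 lies between Rian and Mirg, inside the imprinted Dlk1-Dio3 region.

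The mature sequences are shown to let the seeds be compared, and are RefSeq's on GRCm38.p6, 5′ to 3′, with the seed in capitals.
miR-6370: gCAGGAACagcaaaggggaag
miR-883a-5p: uGCUGAGAgaaguagcaguuac
miR-882: aGGAGAGAguuagcgcauuagu
miR-7084-5p: uAGAGGAUagagguagagagu
miR-5113: aCAGAGGAggagagagauccugu
miR-423-5p: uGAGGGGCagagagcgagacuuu
None of these 6 shared its 7-base seed with another. On the array, the seed of miR-6370 was also that of miR-873a-5p, that of miR-882 was also that of miR-3473a, and that of miR-423-5p was also that of miR-6921-5p. The mature stretch of miR-6370 lies at chr6:19555438-19555458 on the plus strand, and that of miR-882 at chr12:109682207-109682228 on the plus strand. miR-883a-5p lies at chrX:66780803-66780824 on the minus strand. No other RefSeq gene overlaps these 3. miR-5113 lies at chr15:80940049-80940071 on the plus strand, within the interval of Tnrc6b. miR-7084-5p lies at chr9:22113988-22114008 on the minus strand within the interval of Elof1, and miR-423-5p at chr11:77078122-77078144 on the minus strand within that of Nsrp1. For miR-1966-5p and miR-6957-5p the hairpins of Mir1966 (chr8:105615466-105615573, plus strand, within the interval of Ripor1) and Mir6957 (chr15:80646073-80646136, plus strand, within that of Grap2) are printed further on.

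Signals are gene signals of the scanner software after each array was scaled to the same 75th percentile over the 423 miRNAs detected on all 8 arrays. They are given as scaled signals in linear units, and differences are on the log2 scale. The level of 1 probe set is no measure of amount beside that of another, so media are compared within the same miRNA. Where levels are summed over a list or compared between miRNAs below, they describe array signal only. The 8 miRNAs stood 6.88 to 13.5 times above their own error on every array.

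miR-6370 had scaled signals of 66.8, 73.2 and 61.3 in G93A/G93A medium, against 33.1, 34.9 and 32.3 in G93A/WT medium and 43.2 and 45.0 in WT/WT medium. The 3 groups did not overlap, with WT/WT between the others. The G93A/G93A level was 2.00 times the G93A/WT level and 1.52 times the WT/WT level.

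miR-883a-5p, from the X-linked group, had 36.0, 32.6 and 31.7 in G93A/G93A, against 17.6, 17.6 and 16.6 in G93A/WT and 22.8 and 22.4 in WT/WT. Its arrays also formed 3 separate groups, with an SD of the log2 signal of 0.10, 0.05 and 0.02 in G93A/G93A, G93A/WT and WT/WT. The G93A/G93A level was 1.93 times that of G93A/WT and 1.48 times that of WT/WT.

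miR-882, the miRNA from the Dlk1-Dio3 region, had 106, 98.5 and 82.7 in G93A/G93A, against 48.8, 50.5 and 52.2 in G93A/WT and 63.7 and 69.9 in WT/WT. The groups were again separate, although the lowest G93A/G93A array came nearer to the WT/WT arrays than those of miR-6370 did. The mean level was 1.89 times that of G93A/WT and 1.43 times that of WT/WT.

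miR-1966-5p had 59.4, 56.1 and 49.2 in G93A/G93A, against 29.3, 29.8 and 28.9 in G93A/WT and 35.7 and 36.3 in WT/WT. Its G93A/WT arrays lay within an SD of 0.02 on the log2 scale, the smallest of the 8 miRNAs in that group. The G93A/G93A level was 1.87 times that of G93A/WT and 1.52 times that of WT/WT.

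miR-5113 had 1020.4, 963 and 813 in G93A/G93A, against 483, 524 and 532 in G93A/WT and 639 and 699.9 in WT/WT. The 3 groups did not overlap. The WT/WT level sat nearly midway on the log2 scale, and G93A/G93A was 1.81 times G93A/WT and 1.39 times WT/WT.

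miR-7084-5p had 27.8, 23.5 and 24.2 in G93A/G93A, against 12.3, 14.7 and 13.5 in G93A/WT and 15.1 and 15.3 in WT/WT. The G93A/G93A arrays stood clear of both other media, and the highest G93A/WT array came close to the WT/WT arrays without reaching them. The G93A/G93A level was 1.86 times that of G93A/WT and 1.65 times that of WT/WT.

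miR-423-5p had 131, 127 and 114 in G93A/G93A, against 64.5, 73.1 and 74.5 in G93A/WT and 75.3 and 82.1 in WT/WT. Here too G93A/G93A stood apart, and the highest G93A/WT array lay just below the lower WT/WT array. The G93A/G93A level was 1.75 times that of G93A/WT and 1.57 times that of WT/WT.

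miR-6957-5p had 24.1, 22.5 and 22.0 in G93A/G93A, against 9.11, 13.3 and 13.1 in G93A/WT and 12.1 and 10.0 in WT/WT. It was the only one of the 8 whose G93A/WT and WT/WT arrays overlapped. Its G93A/G93A level was 1.96 times that of G93A/WT and 2.07 times that of WT/WT.

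**Figure D1:**
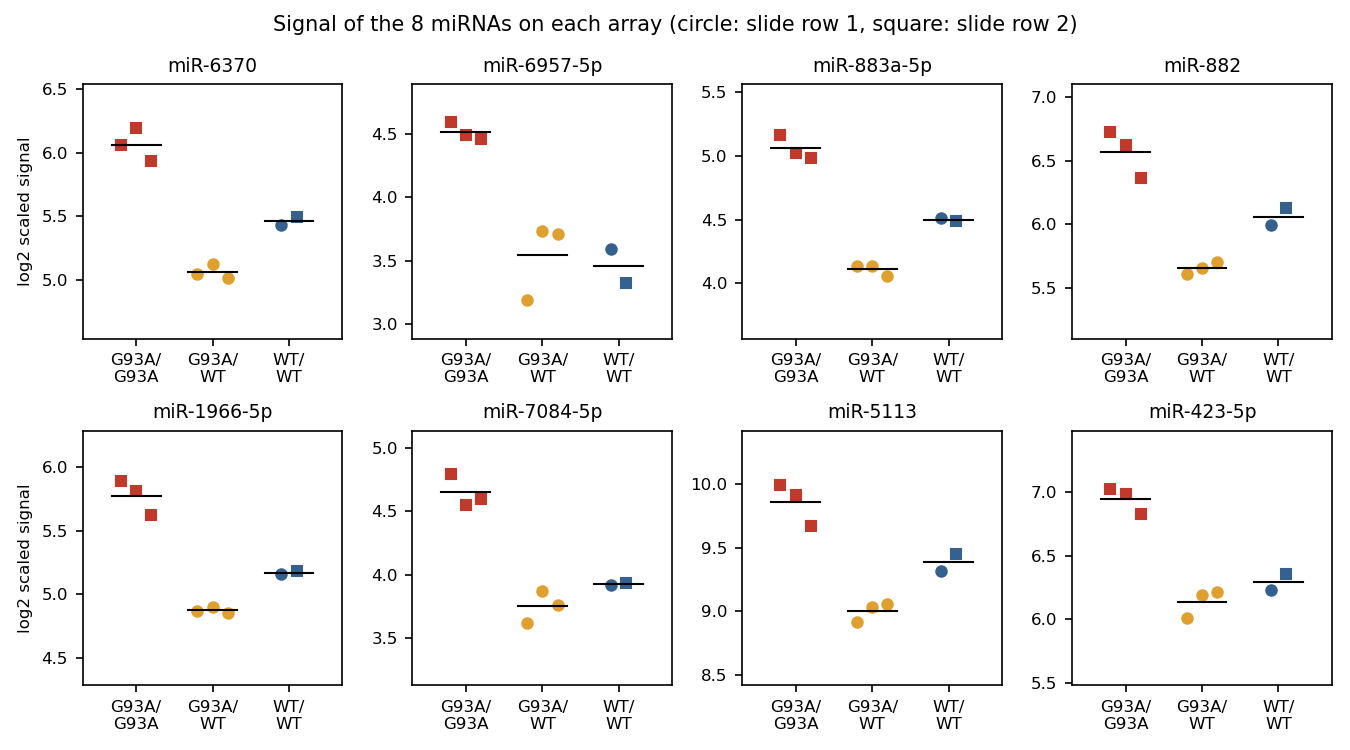
Log2 scaled signal (vertical axis, each panel 2 log2 units high) of the 8 miRNAs on each array, with G93A/G93A in red, G93A/WT in yellow and WT/WT in blue, lines for group means and marker shape for the slide row. In every panel the G93A/G93A arrays lie above the others, and in 7 of 8 the WT/WT arrays lie between the other media, miR-6957-5p being the exception.

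Every G93A/G93A array lay above every G93A/WT array for 8 of 8 miRNAs, as the rule asks in the mean. The same non-overlap held for 15.6% of the 538 miRNAs tested, which are those detected on at least 2 arrays. In the limma fit over these 538, with Benjamini-Hochberg adjustment and a threshold of 0.05, 5.39% were called higher in G93A/G93A than in G93A/WT, 29 miRNAs that include the 8. Nothing about the 8 follows from this count, since the same difference chose them. Their log2 differences ran from 0.81 ± 0.11 for miR-423-5p to 1.00 ± 0.10 for miR-6370 (limma SE), with a median of 0.91 beside −0.10 over all tested miRNAs. They are the 8 largest differences among the 29. Just outside stood miR-3095-3p at 0.79 ± 0.13, miR-6978-5p at 0.78 ± 0.11 and miR-6946-5p at 0.78 ± 0.09 (SE). Another 30 miRNAs differed by at least as much as miR-423-5p, up to 1.98, and 0 of them was called. Of these 30, 17 are repeat-derived miR-297, miR-466, miR-467 and miR-669 miRNAs, and the 18 detected on all 8 arrays had SEs of 0.26 to 0.48, against at most 0.17 for the 8.

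This difference coincides with the layout of the single slide: all G93A/G93A arrays and WT/WT 2 lay in row 2, and all G93A/WT arrays and WT/WT 1 in row 1. Row and medium cannot be told apart here except through 1 WT/WT array per row. Fitted with a term for the slide row, the 8 differences were 0.68 to 1.24, and 0 of the 538 passed, the 8 included. WT/WT 2 minus WT/WT 1, the only same-medium difference across rows, ran from −0.27 for miR-6957-5p to 0.14 for miR-882.

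The WT/WT medium, which the rule did not use, places the levels of the other media. As a percentage of the way from the G93A/WT level up to the G93A/G93A level on the log2 scale, the WT/WT level stood at 44.8% for miR-5113, 44.0% for miR-882, 40.7% for miR-883a-5p and 39.9% for miR-6370. It stood at 32.9% for miR-1966-5p, 19.8% for miR-7084-5p and 19.3% for miR-423-5p. For miR-6957-5p it lay at −8.65%, slightly below the G93A/WT level. The WT/WT level was thus nearer to G93A/WT for all 8 in these means, and the distance was uneven. The mean of both mutant-containing media minus WT/WT gives this offset as a contrast whose direction the choice of the 8 does not set. It was above 0 for 8 of 8 (median 0.13, beside 0.01 over all tested miRNAs), and 0 of 8 passed limma's test, against 6.32% of the 538 in either direction. The 8 share the same WT/WT arrays and vary together over the arrays, so their signs are not 8 separate observations. How many of the 538 lay above 0 was not counted. The sign depended on the scaling: with scaling on the median miR-882 (−0.018) and miR-5113 (−0.029) lay below 0, and in the authors' values miR-883a-5p did (−0.010).

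The offset was widest for miR-6957-5p, at 0.57 ± 0.17 (SE, unadjusted p = 0.0123, adjusted p = 0.102 in limma). It was 0.27 ± 0.11 for miR-7084-5p (SE, unadjusted p = 0.0440, adjusted p = 0.201) and 0.25 ± 0.11 for miR-423-5p (SE, unadjusted p = 0.0513, adjusted p = 0.217). For miR-1966-5p it was 0.15, and for miR-6370, miR-883a-5p, miR-882 and miR-5113 it was 0.04 to 0.10, about 1 SE or less. miR-6957-5p passed without G93A/WT 1 (0.66, adjusted p = 0.0227), and miR-882 and miR-5113 fell on the other side of 0 without WT/WT 1 (−0.013 and −0.022).

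Against WT/WT medium, 6 of the 8 miRNAs were called higher in G93A/G93A medium by limma, beside 3.72% of the 538. The G93A/G93A arrays are those of the rule, so this count is no independent support. miR-6957-5p was higher by 1.05 ± 0.19, miR-7084-5p by 0.72 ± 0.12 and miR-423-5p by 0.65 ± 0.12 (SE, limma adjusted p = 0.0211 each). miR-1966-5p was higher by 0.60 ± 0.11 and miR-883a-5p by 0.56 ± 0.10 (SE, adjusted p = 0.0211 each), and miR-6370 by 0.60 ± 0.11 (SE, adjusted p = 0.0214). miR-882 differed by 0.51 ± 0.13 (SE, adjusted p = 0.0634) and miR-5113 by 0.47 ± 0.13 (SE, adjusted p = 0.0749) and were not called. All G93A/G93A arrays lay above both WT/WT arrays for 8 of 8, beside 18.0% of the 538.

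These calls rest on both WT/WT arrays. Without WT/WT 1 and without WT/WT 2 the number called was 0 of 8 each time, without G93A/G93A 2 it was 1, without G93A/G93A 1 it was 2, and without G93A/G93A 3 it was 8. It was also 0 with a slide row term, where G93A/G93A is set against WT/WT 2 alone and the differences were 0.41 to 1.19. With miRNAs numbered below 1000 and those from 1000 up centred apart, and with no scaling, it was 0 as well, and with scaling on the median it was 1. The differences stayed above 0 under all 22 alternatives.

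Against WT/WT medium, 0 of the 8 passed in G93A/WT medium, and 5 of the 8 had an unadjusted p under 0.05 in limma. The 5 were all lower, and 13.8% of the 538 were lower at an unadjusted p under 0.05. By adjusted p, 0.743% of the 538 were called lower and 3.16% higher. The log2 differences were −0.40 ± 0.13 for miR-882, −0.40 ± 0.11 for miR-6370, −0.39 ± 0.10 for miR-883a-5p and −0.38 ± 0.13 for miR-5113 (SE, limma adjusted p = 0.123, 0.0793, 0.0703 and 0.129). They were −0.30 ± 0.11 for miR-1966-5p, −0.18 ± 0.12 for miR-7084-5p, −0.16 ± 0.12 for miR-423-5p and 0.08 ± 0.19 for miR-6957-5p (SE). All G93A/WT arrays lay below both WT/WT arrays for 7 of 8, beside 26.0% of the 538. The rule chose miRNAs that are lower in G93A/WT than in G93A/G93A, so low G93A/WT values are favoured by the choice and this count is no independent support. Both orders together, G93A/G93A above WT/WT above G93A/WT with no overlap, held for 14 miRNAs (2.60%), and 7 of them are among the 8. That order contains the gap that chose the 8, so nothing is read from this count.

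**Figure D2:**
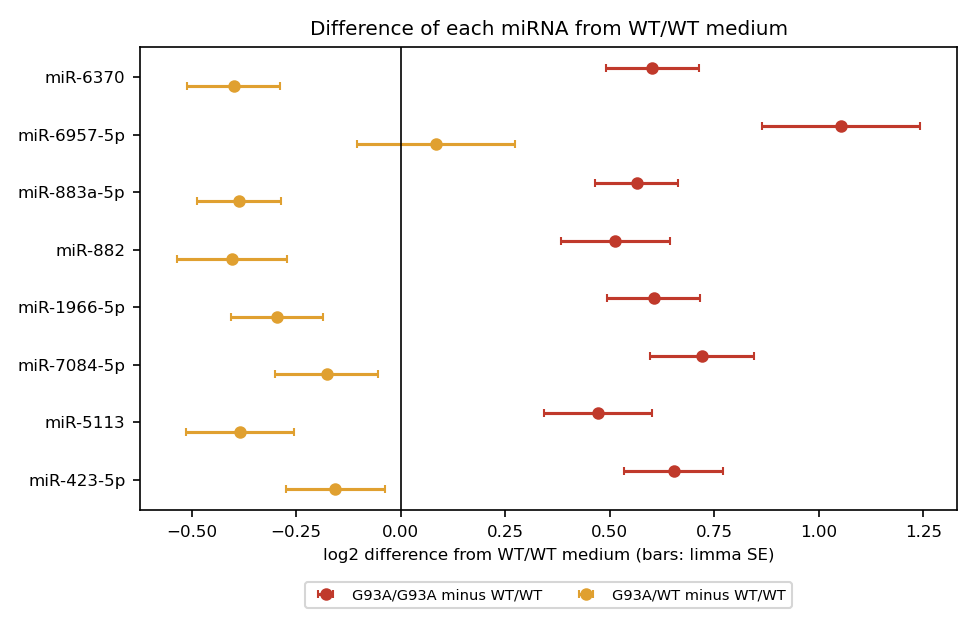
Log2 difference from WT/WT medium (horizontal axis, bars for limma's SE) of each miRNA, in red for G93A/G93A and in yellow for G93A/WT. All red points lie above 0, from 0.47 to 1.05, and the yellow points run from −0.40 to 0.08.

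The sign of the difference between G93A/WT and WT/WT depends on the scaling. Scale factors were 0.973 to 1.31 for the G93A/G93A arrays, 0.593 to 0.933 for the brighter G93A/WT arrays and 1.13 to 1.44 for the WT/WT arrays. With no scaling all 8 lay above WT/WT in G93A/WT medium, by 0.37 to 0.85, where the median over all tested miRNAs was 0.79. In the authors' deposited table of processed values, miR-6370 had 71.0, 71.5 and 61.0 units in G93A/G93A, against 32.1, 33.5 and 34.3 in G93A/WT and 42.5 and 44.6 in WT/WT. In that table G93A/G93A lay above WT/WT on all arrays for 8 of 8, and G93A/WT below WT/WT on all arrays for 6 of 8, since the groups of miR-423-5p overlapped there as well as those of miR-6957-5p. The G93A/WT arrays lay below both WT/WT arrays for 6 of 8 with scaling on the median, 5 of 8 with quantile normalization, and 0 of 8 with scaling on the sum or with no scaling.

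Within G93A/G93A, most of the 8 miRNAs had the same highest and lowest array after scaling. G93A/G93A 1 was the highest of the 3 arrays for 7 of 8 (miR-6370 was highest on array 2), and G93A/G93A 3 the lowest for 7 of 8 (miR-7084-5p was lowest on array 2). The order depends on the scaling. Before scaling, miR-6370 had 57.7, 55.9 and 63.0 on G93A/G93A 1, 2 and 3, and miR-5113 had 882, 736 and 835. How often other miRNAs had the same order was not counted, so it is not read as a trait of the 8. Pearson r between pairs of the 8 over the 8 arrays was 0.831 to 0.999, with a median of 0.966 over 28 pairs, a description only, since the points share their arrays and scaling and the choice of the 8 sets the gap between groups.

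What the 8 share beside their levels was looked for in their sequences. Of the 84 different 5-base words in the 6 mature sequences, GAGAG and the overlapping AGAGA each occurred in 5, all but miR-6370, and every other word in at most 2. The hairpins that hold miR-1966-5p and miR-6957-5p contain GAGAG as well. The word is shown in capitals, which run on where copies overlap, read on the given strand only.
miR-882: agGAGAGAGuuagcgcauuagu
miR-883a-5p: ugcuGAGAGaaguagcaguuac
miR-423-5p: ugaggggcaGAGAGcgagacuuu
miR-5113: acagaggagGAGAGAGauccugu
miR-7084-5p: uagaggauagagguaGAGAGu
Mir1966 hairpin: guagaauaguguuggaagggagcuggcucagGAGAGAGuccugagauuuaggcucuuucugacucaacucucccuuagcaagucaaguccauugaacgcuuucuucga
Mir6957 hairpin: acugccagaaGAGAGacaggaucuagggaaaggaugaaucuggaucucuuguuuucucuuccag
In the Mir1966 hairpin the capitals cover positions 32 to 38, and the annotated 3p product begins at position 56. In the Mir6957 hairpin they cover positions 11 to 15, with the 3p product beginning at position 41. Only in miR-882 does the word lie wholly within the seed. On the array 64 of the 1608 mouse miRNAs with a RefSeq mature sequence hold GAGAG, or 3.98%.

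The word was picked after the 8 and their values were known, so its relation to the levels is a description without a test. It was looked at in miRNAs outside the 8. Of 38 other tested miRNAs with GAGAG, 11 were called higher in G93A/G93A than in G93A/WT and 0 lower, or 28.9% higher. Of 409 other tested miRNAs without it, 9 were called higher (2.20%) and 25 lower. Their median differences were 0.16 with the word and −0.15 without it. The counts depend on the scaling: with scaling on the sum 5 were higher and 1 lower with the word, against 3 higher and 35 lower without it. In the authors' values 10 were higher and 0 lower with the word, against 16 of 374 higher and 9 lower without it. With no scaling 0 were higher in either set, 3 were lower with and 131 without the word, and the medians were −0.44 and −0.74. G93A/G93A and G93A/WT also lie in different slide rows, and with a term for the row 0 miRNAs were called between them. Among miRNAs detected on all 8 arrays the medians were 0.20 (n = 35) and −0.10 (n = 318). The difference of G93A/G93A from WT/WT had medians of 0.17 with and −0.08 without the word, and that of G93A/WT from WT/WT −0.08 and 0.04.

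**Figure D3:**
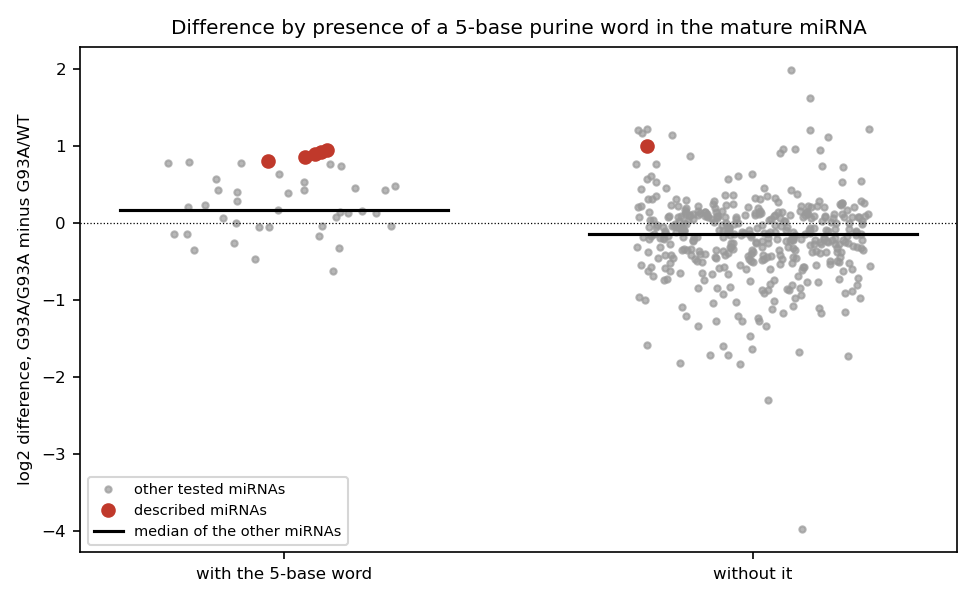
Log2 difference of G93A/G93A minus G93A/WT (vertical axis) of the 453 tested miRNAs with a RefSeq mature sequence, split by the presence of the 5-base purine word, with the 6 sequenced miRNAs of the 8 in red, others in grey and lines for the medians of the others. The grey median is 0.16 with the word and −0.15 without it, and the clouds overlap.

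Other properties went with the word. It is made of purines (A and G), and purines made up 63.6% to 85.7% of the 6 mature sequences, beside a median of 59.1% over the tested miRNAs. Over 453 tested miRNAs the share of purines correlated with the G93A/G93A minus G93A/WT difference at r = 0.147, and the mean level did so at r = 0.332. Over the 359 detected on all 8 arrays the correlation with the share of purines was r = 0.277. All are across miRNAs that share their 8 arrays. Both sets include the 6 sequenced miRNAs of the 8, which were chosen on this difference, so the choice enters these correlations. miRNAs with the word were also detected more often, 45 of 64 on at least 1 array (70.3%) against 450 of 1544 without it (29.1%). These detection counts include the sequenced miRNAs of the 8, which the rule chose for being detected. Outside the 8, the median log2 level was 5.78 with the word, against 4.31 without it. The part of level and base composition in the relation to the word was not tested.

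**Figure D4:**
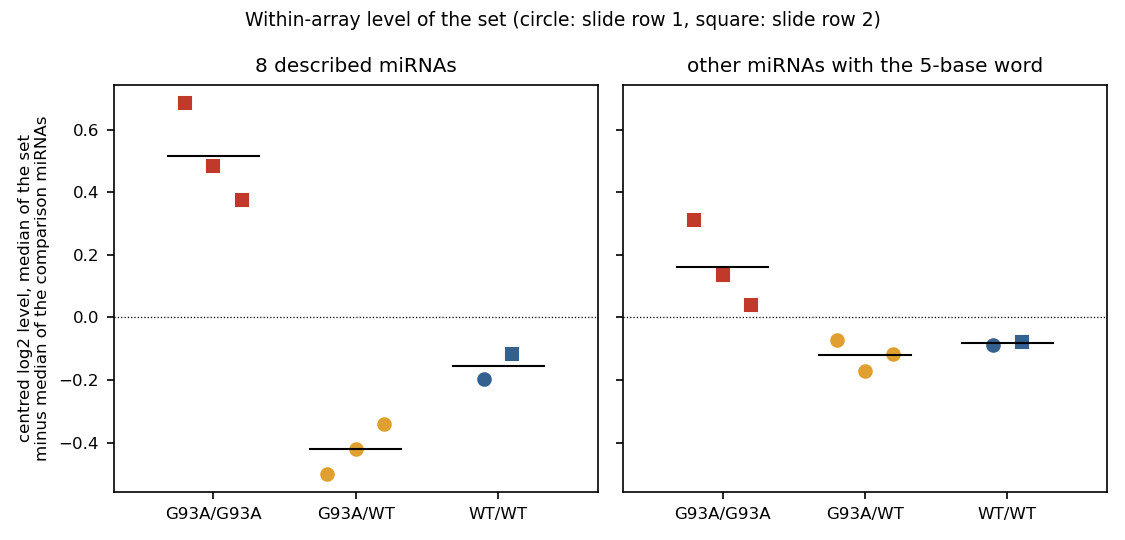
Median centred log2 level of a set of miRNAs minus the median of comparison miRNAs on the same array (vertical axis), for the 8 miRNAs against 415 others (left) and for 35 other miRNAs with the 5-base word against 318 without it (right), by medium, with lines for group means and marker shape for the slide row. Both sets are highest in G93A/G93A, at 0.52 and 0.16 on average. For the 8, a higher level in G93A/G93A than in G93A/WT is how they were chosen. G93A/G93A and G93A/WT lie in different slide rows, so row and medium cannot be told apart except through 1 WT/WT array per row.

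Read within each array, with each miRNA centred on its own mean over the 8 arrays, the 8 stood above 415 other miRNAs by 0.52 ± 0.16 in G93A/G93A, and differed from them by −0.42 ± 0.08 in G93A/WT and −0.16 ± 0.06 in WT/WT (SD over 3, 3 and 2 arrays). The rule chose the 8 for being higher in G93A/G93A than in G93A/WT, so for them this measure is a description only. The same measure for the 35 other miRNAs with the word was 0.31, 0.14 and 0.04 on the G93A/G93A arrays, against −0.07, −0.17 and −0.12 on the G93A/WT arrays and −0.09 and −0.08 on the WT/WT arrays. G93A/G93A arrays were above all others on this measure. WT/WT 2, the only WT/WT array in the slide row of G93A/G93A, was at −0.08 and WT/WT 1, in the other row, at −0.09. G93A/G93A and G93A/WT lie in different rows, so row and medium cannot be told apart on this measure except through these single WT/WT arrays.

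The 5 other miRNAs whose profile over the 8 arrays was most like the mean profile of the 8 were miR-6938-5p (r = 0.984), miR-6978-5p (r = 0.984), miR-6946-5p (r = 0.977), miR-711 (r = 0.976) and miR-5110 (r = 0.975), out of 415 detected on all arrays. Of these, 4 are also among the 5 most alike with scaling on the median, and the gap that chose the 8 is part of the profile. Their sequences, printed with the word again in capitals, hold it in 4 of 5, beside 9.92% of the 353 other sequenced miRNAs detected on all 8 arrays. The 4 with the word are among the miRNAs with the word already counted above as called higher in G93A/G93A than in G93A/WT. They are thus no further observation on the word.
miR-6938-5p: uuggagcuagcuccaGAGAGAGu
miR-6978-5p: aagggguGAGAGAGaagcuggug
miR-6946-5p: aaaaggGAGAGaaagaaaugc
miR-711: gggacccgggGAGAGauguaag
miR-5110: ggaggagguagagggugguggaauu
miR-6938-5p had scaled signals of 170.2, 163 and 143 in G93A/G93A, against 96.7, 94.9 and 89.6 in G93A/WT and 104 and 112 in WT/WT. miR-711 had 22.2, 20.0 and 20.0 in G93A/G93A, against 11.7, 13.3 and 12.3 in G93A/WT and 16.2 and 15.4 in WT/WT. In both, G93A/G93A lay above WT/WT and WT/WT above G93A/WT with no overlap, as in 7 of the 8 and in 2.60% of the 538 tested. The same order held for miR-6978-5p and miR-6946-5p. It did not hold for miR-5110, whose G93A/WT arrays (16.4, 17.9 and 17.9) overlapped its WT/WT arrays (17.5 and 18.7).

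The other arms that the array holds were not seen. The 3p arms of miR-1966, miR-423, miR-6957, miR-7084 and miR-883a were on the array, and 0 of the 5 was detected on any of the 8 arrays. The 8 other miRNAs within 10 kb of a gene of the 8 all lie beside Mir883a (both arms of miR-742, miR-743a, miR-743b and miR-883b), and 0 of them was detected. Of 17 listed miRNAs of that X-linked group, 2 were detected on any array and 1 was tested, miR-878-3p, which was seen only in G93A/WT medium and did not pass. miR-883a-5p was measured on every array while its other arm and its neighbours gave no detected signal.

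Of 10 miRNAs often used as references in serum or plasma, 8 were tested and 0 passed in any of the comparisons. Their median difference was −0.32 between G93A/G93A and G93A/WT, beside −0.10 over all tested miRNAs. It was −0.28 between G93A/G93A and WT/WT, beside −0.01, and 0.04 between G93A/WT and WT/WT, beside 0.04. Among them, miR-24-3p had log2 levels of 8.29 ± 0.07 on the 3 G93A/G93A arrays, 8.56 ± 0.14 on the 3 G93A/WT arrays and 8.66 ± 0.09 on the 2 WT/WT arrays (SD).

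The muscle miRNAs miR-1a-3p, miR-133a-3p, miR-133b-3p and miR-206-3p, which mark the labelled cell type, were detected on all arrays and 0 of the 4 passed in any comparison. The summed scaled signal of the 6-member muscle list, in which miR-208b-3p was detected nowhere, was 4094 to 5063 in G93A/G93A, 4341 to 5258 in G93A/WT and 4522 to 5194 in WT/WT. Epithelial markers did move with the media: of 7 listed, 5 were tested and all 5 were called lower in G93A/G93A against both other media. Their sum was 0 to 5.36 in G93A/G93A, 61.2 to 85.0 in G93A/WT and 138 to 166 in WT/WT, with miR-200a-3p and miR-141-3p detected nowhere and only miR-205-5p detected in G93A/G93A. Of 4 leukocyte markers only miR-223-3p was detected, and it was called higher in G93A/G93A than in WT/WT by 0.52 (limma adjusted p = 0.0433). Of 5 fibroblast markers 4 were tested, and miR-199a-5p alone was called in a comparison with WT/WT, with a log2 difference of −0.85 in G93A/G93A (adjusted p = 0.0291). The 2 tested erythroid markers, the 2 tested neural ones and the endothelial miR-126a-3p did not pass. The part of other cell types in the levels of the 8 was not tested, and a medium with fewer releasing cells and one with less RNA released per cell cannot be told apart.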

How the data were processed

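The 8 arrays held RNA from culture medium, extracted from about 600 µl, of which 150 ng of small RNA was labelled with Cy3, per the labels' protocols. Per the file headers, the deposited array files hold for each miRNA a linear intensity (total gene signal) with an error, and mark whether it was detected. Undetected miRNAs are listed at 0.1. The deposited table of the authors' processed intensities of the same arrays has a normalization not given in the sources used here and served as an alternative. Arrays were numbered within each group by the labels.

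Arrays were scaled to equal 75th percentiles over the 423 miRNAs that every array detected, a floor of 1.52 units (log2 0.60) was set, and log2 was taken. The 538 miRNAs detected on at least 2 arrays were fitted in R 4.3.3 with limma 3.58.1, using lmFit and eBayes with 1 spread for all 3 groups (1.96 prior degrees of freedom). P-values were adjusted by Benjamini-Hochberg over the 538, at a threshold of 0.05. 1 of the 538 stood at the floor on every array. SEs are limma's, and folds are 2 to the power of a log2 difference. The 2 or 3 arrays per group limit the precision. The script was tested on simulated data. RefSeq mature sequences matched 84.2% of the tested miRNAs.

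The 8 miRNAs, the lists and the tests were chosen with earlier results of these data known. Named beside the 8 were their other arms, miRNAs sharing a seed or lying within 10 kb, the 5 most alike in profile, and listed reference and marker miRNAs. The miRNAs just outside the rule and miRNAs of the sequence word were named after their values were seen. Alternatives covered scaling, floor, filter, variance model, slide row, replicate number and leaving out each array. Same-numbered arrays of G93A/G93A and G93A/WT did not deviate together (r = −0.19, −0.20 and −0.35 for the 3 numbers). Differently numbered pairs gave r = −0.16 to 0.32. With so few arrays, these values cannot decide whether same-numbered samples share a litter or culture day, which the labels do not name.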

Additional observations from a re-analysis of the deposited data

How the results depend on the processing

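Of the 57 miRNAs called between G93A/G93A and G93A/WT (8 of the 8 described), leaving out 1 array gave 38 to 122 (8 to 8), the most without G93A/G93A 3, no scaling gave 149 (0 of the 8) and the slide row as a block gave 0 (0 of the 8). This difference chose the 8, so their counts here are no sign of stability, and miR-6957-5p was not called with scaling on the sum (limma adjusted p = 0.0520) or with the replicate block (0.0597). The split of calls into higher and lower moved with the scaling: 29 and 28 as reported, 15 and 39 with the sum, 1 and 148 with none, 35 and 10 in the authors' values. Between G93A/G93A and WT/WT 46 were called (6 of the 8), 20 higher and 26 lower, against 5 and 28 with median scaling and 38 and 12 with the sum. Leaving out 1 array gave 7 to 57 (0 to 8 of the 8), median scaling 1 of the 8, no scaling 14 (0 of the 8), probe classes centred apart 18 (0), miRNAs detected on all 8 arrays 29, the slide row as a block 7 (0) and row 2 alone 9 (0). Between G93A/WT and WT/WT 21 were called (0 of the 8), 17 higher and 4 lower (16 and 11 with the median, 34 and 0 with the sum, 6 and 9 with quantile normalization, 130 and 0 with none, 2 and 3 in the authors' values), 7 to 61 leaving out 1 array, 34 with scaling on the sum, 130 with no scaling, 5 with the authors' values and 0 among miRNAs detected on all 8 arrays, where fewer were tested. For the mean of both mutant-containing media minus WT/WT 34 were called (0 of the 8), 17 higher and 17 lower (14 and 26 with the median, 39 and 8 with the sum, 5 and 13 with quantile normalization, 13 and 2 with none), 2 to 41 (0 to 1) leaving out 1 array, 1 of the 8 (miR-6957-5p) with scaling on the sum, and in all 18 with quantile normalization, 15 with no scaling, 17 with the authors' values and 8 among miRNAs detected on all 8 arrays.

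With the replicate number as a block, although the labels do not say that the numbers pair the samples, the 4 comparisons gave 37, 10, 8 and 0 calls, with 0 of the 8 against WT/WT.

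Signs turned in G93A/WT minus WT/WT for miR-6957-5p (−0.028 with median scaling, −0.020 with quantile normalization, −0.084 with the authors' values, −0.050 with the slide row as a block or in row 1 alone, and −0.050 to 0.26 leaving out 1 array, below 0 without WT/WT 2 or G93A/WT 2), with scaling on the sum for miR-1966-5p (0.054), miR-7084-5p (0.17) and miR-423-5p (0.19), and with no scaling for miR-6370 (0.37), miR-883a-5p (0.38), miR-882 (0.37), miR-1966-5p (0.47), miR-7084-5p (0.59), miR-5113 (0.39) and miR-423-5p (0.61). In that comparison the median of all tested miRNAs moved to 0.38 with the sum and 0.79 with no scaling, from 0.04. For the mean of both mutant-containing media minus WT/WT, signs turned for miR-882 (−0.018) and miR-5113 (−0.029) with median scaling, for miR-883a-5p (−0.010) with the authors' values, and, leaving out 1 array, for miR-882 (−0.013 to 0.12) and miR-5113 (−0.022 to 0.11), both below 0 without WT/WT 1. The causes were not tested. Scaling on the 75th percentile of all mouse miRNAs was not run, because on 3 arrays it falls on the undetected level. Leaving out the 1 miRNA at the floor on every array turned no sign. It, and the scalings tried on the word and on the order of the groups, were chosen after seeing the data.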
